A study of Mus musculus with 4 samples.

Results

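The replication licensing genes examined here were Mcm2, Mcm3, Mcm4, Mcm5, Mcm6, Mcm7, Mcm10, Cdc6, Cdt1 and Cdc45. They were taken by name and not by a cutoff on a measured value, although earlier results of these data were known. They are 10 of 21951 protein-coding genes of the mouse annotation (GENCODE release M21 on mm10), and all 10 were found in it. The data were ChIP-seq peak lists (chromatin immunoprecipitation, then sequencing) of Eya1 in mouse embryonic kidneys at E13.5. All embryos carried an Eya1 HA-FLAG knockin allele, so the protein was recovered through its tag with anti-FLAG M2 beads, and the 80 kidneys that went into each assay were pooled. Of the 4 samples, 2 were Eya1 ChIP replicates, each with a list of peaks, and the 1 input and 1 IgG control were not analysed here. The labels do not say whether the kidneys of the replicates came from separate litters, and a pool of whole kidneys does not tell which cells carried Eya1 at a site.

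Replication licensing is the step by which a chromosome is made ready to be copied in the coming S phase. The origin recognition complex, Cdc6 and Cdt1 load the ring-shaped MCM2-7 helicase onto DNA in G1, and the ring stays inactive until Cdc45 and the GINS complex join it at the start of S phase, with Mcm10 needed for the step in which the helicase begins to unwind DNA. Many of these genes are classical targets of E2F factors, which drive transcription at the G1 to S transition in dividing cells. Eya1 is a transcriptional coactivator and phosphatase that has no DNA-binding domain of its own, acts through DNA-binding partners, and is required for kidney formation. The comparison asked at which of these genes the Eya1 peak lists held a peak near a transcription start site (TSS) or in the gene body.

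The promoter sequences that matter for what follows are those of Mcm6, the licensing gene whose replicate 1 peak covered its 5′ end, and of Mcm5, Cdc6 and Mcm2, which had no peak there in either list. They are shown from 5′ to 3′ along the gene, as in the RefSeq promoter table (GRCm38.p6, the assembly of mm10), and only bases that lie in no annotated exon are given. Capitals mark the E2F letters, namely TTTCCCGC, TTTCGCGC, TTTGCCGC and TTTGGCGC on either strand. The positions are chr1:128359706-128359865 (minus strand) for Mcm6, chr8:75109308-75109467 (plus strand) for Mcm5, chr11:98907991-98908150 (plus strand) for Cdc6 and chr6:88898781-88898940 (minus strand) for Mcm2.
Mcm6: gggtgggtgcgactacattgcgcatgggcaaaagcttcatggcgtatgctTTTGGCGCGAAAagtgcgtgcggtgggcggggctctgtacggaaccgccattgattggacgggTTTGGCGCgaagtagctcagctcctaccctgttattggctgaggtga
Mcm5: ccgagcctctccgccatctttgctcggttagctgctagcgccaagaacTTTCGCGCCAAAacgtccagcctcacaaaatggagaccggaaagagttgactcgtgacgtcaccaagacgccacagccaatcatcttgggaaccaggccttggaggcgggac
Cdc6: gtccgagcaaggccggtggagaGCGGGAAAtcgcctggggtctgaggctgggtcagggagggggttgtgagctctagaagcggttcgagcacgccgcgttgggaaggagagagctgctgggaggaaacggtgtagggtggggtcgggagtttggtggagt
Mcm2: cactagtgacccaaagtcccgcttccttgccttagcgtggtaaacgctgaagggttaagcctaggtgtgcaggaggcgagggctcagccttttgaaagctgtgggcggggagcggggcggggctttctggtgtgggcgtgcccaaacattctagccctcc
The Mcm6 stretch held 3 E2F matches, of which a pair overlapped, and all of it lay inside the replicate 1 peak. The Mcm5 stretch held an overlapping pair, the Cdc6 stretch held 1 match and the Mcm2 stretch held none. The Cdc6 stretch lies inside the GENCODE gene span, since its RefSeq start is 350 bp downstream of the GENCODE 5′ end.

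A promoter peak was a peak with any part within 1 kb of an annotated transcript start of the gene, and a gene body peak was one that overlapped the gene span farther than 1 kb from every start. By this definition 4041 peaks of replicate 1 and 3534 of replicate 2 were promoter peaks of some annotated gene, whether protein-coding or not. The widths over all promoter peaks of a list refer to these sets. The lists were close in number but not in width, since the median promoter peak was 1099 bp wide in replicate 1 and 199.0 bp in replicate 2, and this touches every width given here. The lists give positions only, with no score, fold enrichment, p-value or read count, so the depth behind a peak is unknown, no test of occupancy at a gene was possible, and a gene with no listed peak is not shown to be free of Eya1.

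Among the 10 licensing genes, Mcm4 and Mcm6 had promoter peaks in replicate 1, and no licensing gene had one in replicate 2. The count in replicate 1 was therefore 2 of 10 genes (20.0%), beside 20.2% of all protein-coding genes (4444 of 21951). In replicate 2 it was 0 of 10, beside 14.7% (3227 genes). No licensing gene had a promoter peak in both lists, beside 11.5% of all genes (2520), and 2 had one in either list, beside 23.5% (5151). A gene body peak away from the promoter was found in 0 of 10 licensing genes in either list, beside 1.97% of all genes (432). In replicate 1 the share was thus close to the background. The count of 0 in replicate 2 was not tested, and with 10 genes no difference from the background is read from it. Both Mcm4 and Mcm6 encode subunits of the MCM2-7 ring, so that by role the replicate 1 count was 2 of 6 helicase subunits, 0 of 2 helicase loaders (Cdc6 and Cdt1) and 0 of 2 activation factors (Mcm10 and Cdc45).

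The absence of Mcm4 and Mcm6 from replicate 2 was a frequent outcome in these lists. Of the 4444 genes with a promoter peak in replicate 1, 2520 (56.7%) also had one in replicate 2, and 1924 (8.76% of all protein-coding genes) did not. The 3 peaks at Mcm4 and Mcm6 were 539, 656 and 873 bp wide, with a median of 656 bp (SD 169 bp), and all were below the median of replicate 1 promoter peaks. Over the whole of replicate 1, promoter peaks overlapped by a replicate 2 peak had a median width of 1213 bp (2251 peaks), and those not overlapped had a median of 959.0 bp (1790 peaks). Whether width bears on the absence of Mcm4 and Mcm6 from replicate 2 was not tested.

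Mcm6 (ENSMUSG00000026355.11, chr1:128331590-128359664, minus strand) encodes an MCM2-7 subunit and had the widest of the 3 peaks. Its replicate 1 peak at chr1:128359051-128359923 was 873 bp wide and ran from -259 to 613 bp relative to the 5′ end of the gene, where negative positions are upstream. The midpoint lay 177 bp downstream, and the peak contained 2 of the 4 annotated starts of Mcm6. Of its bases, 614 were in the gene, made up of 206 exonic bases (99 UTR and 107 coding) and 408 intronic bases, and the rest were upstream. No other gene had a start within 1 kb of it, so among the licensing genes this was the peak that could be assigned to its gene alone. It was below the median width of replicate 1 promoter peaks, of which 30.2% were as narrow or narrower. In replicate 2 the nearest peak to any Mcm6 start was 57.3 kb away, 165 bp wide, at the start of Dars.

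Mcm4 (ENSMUSG00000022673.5, chr16:15623897-15637400, minus strand), another subunit of the ring, had a pair of peaks in replicate 1, and these flanked its 5′ end without covering it. The downstream peak, at chr16:15636697-15637352, was 656 bp wide and ran from 48 to 703 bp downstream of the 5′ end, with its midpoint at 375.5 bp. All of it lay in the Mcm4 gene, with 328 exonic bases (172 UTR and 156 coding) and 328 intronic bases. The upstream peak, at chr16:15637562-15638100, was 539 bp wide and ran from -700 to -162 bp, with its midpoint at -431 bp. The gap between the peaks was 209 bp long (chr16:15637353-15637561) and held 1 Mcm4 start, and the pair with the gap covered 1404 bp.

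The upstream peak cannot be given to Mcm4 alone. Prkdc, which encodes the catalytic subunit of the DNA-dependent protein kinase of DNA repair, runs in the opposite direction from a 5′ end 466 bp from that of Mcm4. This 5′ end (position 15637866) lay inside the upstream peak, and 177 bases of the peak were Prkdc exon. RefSeq places the start of Prkdc at 15637444, which is 44 bp from the Mcm4 5′ end and inside the gap between the peaks. Both peaks thus lay within 1 kb of a start of each gene. They were also narrow, with 13.0% of replicate 1 promoter peaks as narrow as or narrower than the downstream peak and 6.81% for the upstream peak. The nearest replicate 2 peak to Mcm4, 201 bp wide at Fgd4, was 962 kb away, the longest distance of any licensing gene in either list.

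**Figure D1:**
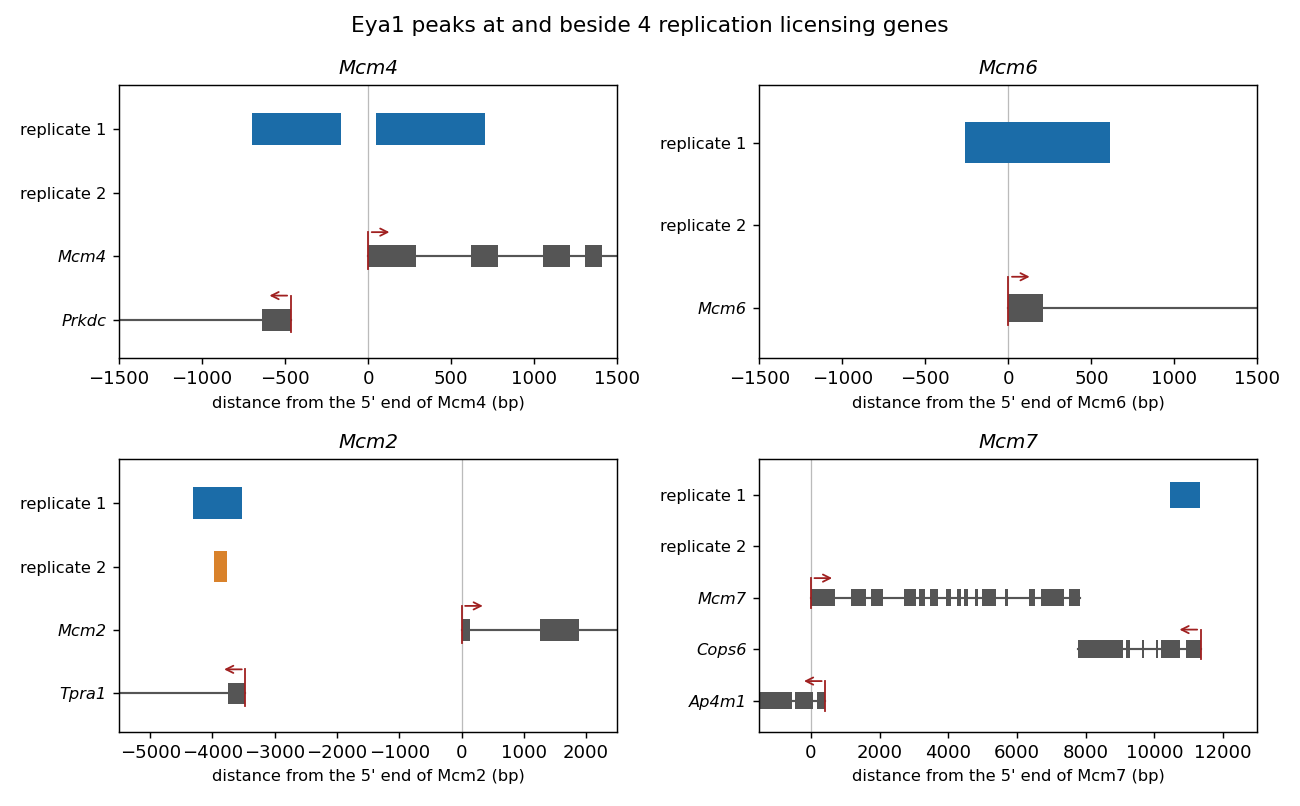
Replicate 1 peaks (blue bars), replicate 2 peaks (orange bar) and gene models (grey boxes for exons, red arrows for 5′ ends) against the distance in bp from the 5′ end of Mcm4, Mcm6, Mcm2 and Mcm7, each drawn so that it reads to the right. The Mcm6 peak covers the 5′ end, the Mcm4 peaks lie on either side of it, and the peaks beside Mcm2 and Mcm7 lie at the 5′ ends of Tpra1 and Cops6.

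Mcm2 (ENSMUSG00000002870.8, chr6:88883474-88898780, minus strand, 7 starts) had no promoter or gene body peak. It was nevertheless the licensing gene with peaks of both lists closest by. The replicate 1 peak at chr6:88902302-88903098 (797 bp) lay 3.52 kb from the nearest Mcm2 start, and the replicate 2 peak at chr6:88902554-88902760 (207 bp) lay 3.77 kb from it and wholly within the replicate 1 peak. These were promoter peaks of Tpra1 (ENSMUSG00000002871.14), a membrane protein gene on the plus strand whose 5′ end was 3.47 kb from that of Mcm2. Their midpoints were 449 and 406 bp downstream of the Tpra1 5′ end, so the peaks sat inside the neighbouring gene. Tpra1, like Cops6 and the other genes named at nearest peaks below, was singled out after its values were seen.

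Mcm7 (ENSMUSG00000029730.16, chr5:138164583-138172422, minus strand, 10 starts), also a ring subunit, has starts of other genes close to some of its own. Its starts spread over 6706 bp. Each distance below is to whichever of them was nearest, which need not be at the 5′ end of Mcm7. Ap4m1, a subunit gene of an adaptor complex of vesicle transport, starts on the opposite strand 160 bp from the nearest Mcm7 start. The genes of the microRNAs Mir106b, Mir93 and Mir25 lie on the same strand, with starts 102, 106 and 312 bp from the nearest Mcm7 start. None of these starts had a peak within 1 kb. The nearest replicate 1 peak, at chr5:138161089-138161957 (869 bp), was 3.76 kb from the nearest Mcm7 start and 2.63 kb beyond the 3′ end of the gene. It lay at the 5′ end of Cops6, which encodes a subunit of the COP9 signalosome and has its 5′ end 11.4 kb from that of Mcm7. In replicate 2 there was no peak at Cops6, and the nearest peak to Mcm7 was 10020 bp away at Zfp113 (248 bp).

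With the distance widened to 5 kb, Mcm2 and Mcm7 joined Mcm4 and Mcm6 in replicate 1, giving 4 of 10 licensing genes beside 21.7% of all genes (4757). In replicate 2, Mcm2 was the 1 licensing gene within 5 kb, beside 16.0% of all genes (3522). The peaks added by the wider distance were those at the 5′ ends of Tpra1 and Cops6. The Cops6 peak was within 5 kb of an internal start of Mcm7. From the 5′ end of Mcm7 it ran from 10465 to 11333 bp downstream.

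The remaining ring subunits, Mcm3 and Mcm5, were far from any peak. For Mcm3 (ENSMUSG00000041859.10, chr1:20802968-20820312, minus strand, 5 starts) the nearest peak was 258 kb away in replicate 1, at Tram2 (1345 bp wide), and 398 kb away in replicate 2, at Tmem14a (153 bp wide). For Mcm5 (ENSMUSG00000005410.6, chr8:75109569-75128439, plus strand, 5 starts) it was 74.9 kb away in replicate 1, at Tom1 (875 bp wide), and 115 kb away in replicate 2, at Hmgxb4 (572 bp wide). No other gene started within 1 kb of an Mcm3 or Mcm5 start.

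The helicase loaders had no promoter or gene body peak in either list. Cdc6 (ENSMUSG00000017499.15, chr11:98907801-98923940, plus strand, 4 starts) encodes the ATPase that works with the origin recognition complex during loading. Its nearest peak was 16.7 kb away in replicate 1, a 1756 bp peak at the retinoic acid receptor gene Rara, and 43.8 kb away in replicate 2, a 162 bp peak at Wipf2. Cdt1 (ENSMUSG00000006585.3, chr8:122568015-122573554, plus strand, 4 starts) encodes the factor that brings MCM2-7 to the origin. Its nearest peak was 91.2 kb away in replicate 1, a 1729 bp peak at Ctu2 and Rnf166, and 191 kb away in replicate 2, a 344 bp peak at Zc3h18.

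Neither activation factor had a promoter or gene body peak. Mcm10 (ENSMUSG00000026669.14, chr2:4989714-5012791, minus strand, 10 starts), which despite its name is no subunit of the ring, had its nearest peak at the same gene, Sephs1, in both lists. The distance was 110 kb in replicate 1 (2200 bp wide) and 111 kb in replicate 2 (158 bp wide). Cdc45 (ENSMUSG00000000028.15, chr16:18780447-18811987, minus strand, 4 starts) encodes a subunit of the active helicase and starts 140 bp from Ufd1, a gene of ubiquitin-dependent protein turnover on the opposite strand. Its nearest peak was 385 kb away in replicate 1 and 65.5 kb away in replicate 2, at Hira and Mrpl40 (117 bp wide). Cdc45 was the licensing gene with the farthest peak in replicate 1.

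Across the licensing genes the distance from the nearest annotated start to the nearest peak ran from 0 to 385 kb in replicate 1, with a median of 45.8 kb, and from 3.77 to 962 kb in replicate 2, with a median of 88.0 kb. Over all protein-coding genes on chromosomes with peaks (21755) the medians were 83.0 and 117 kb. Within 10 kb there were 4 licensing genes in replicate 1 (24.2% of all genes) and 1 in replicate 2 (18.2% of all genes). For 8 of 10 the nearest replicate 1 peak lay near a start of another gene and of no licensing gene.

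**Figure D2:**
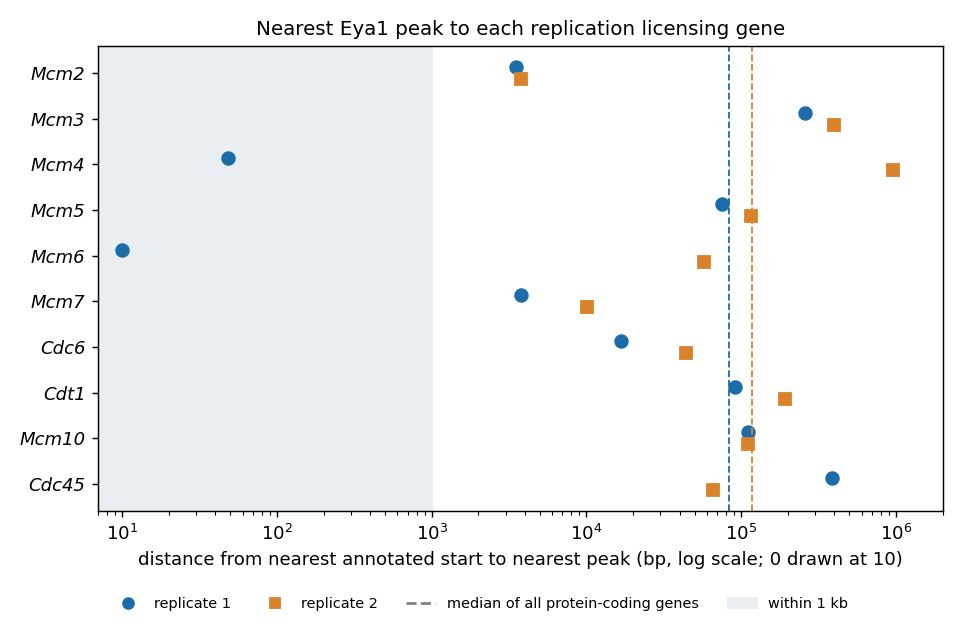
Distance in bp (log axis, with 0 drawn at 10) from the nearest annotated start of each licensing gene to the nearest peak of replicate 1 (blue circles) and replicate 2 (orange squares), with dashed lines for the medians over all protein-coding genes (83.0 and 117 kb) and shading for distances within 1 kb. Mcm4 and Mcm6 in replicate 1 are the only points in the shaded range, and Mcm2 has its points at 3.52 and 3.77 kb.

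The letters recognised by factors known to act on replication genes were searched on both strands of the RefSeq promoter table, which covers 250 bases before to 50 after a start. Of the licensing genes, 9 of 10 had an entry. Mcm4 had none. The E2F letters were present in 6 of 9, namely Mcm3, Mcm5, Mcm6, Mcm7, Cdc6 and Cdt1, beside 2.94% of all promoters in the table (487 of 16538). Of the other DNA replication genes described below, 39 had an entry and 13 of these (33.3%) held the letters. The letters were thus not particular to the licensing genes. In Mcm6 they lay at -110 to -103, -106 to -99 and -47 to -40 from the RefSeq start, which is 41 bp upstream of the GENCODE 5′ end. For Cdc6 and Mcm7 the RefSeq start lies 350 and 539 bp downstream of the GENCODE 5′ end. The windows searched for Cdc6 and Mcm7 therefore lie inside the GENCODE gene span. In Mcm3 and Cdt1 they lay downstream of the start, at 20 to 27 and 39 to 46 in Mcm3 and at 33 to 40 in Cdt1. The promoters of Mcm2, Mcm10 and Cdc45 had no match, which says only that these letters are not in the window.

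The E2F letters and the peak lists met at Mcm6, while Mcm4, the other gene with peaks, was not searched. Of the 6 licensing genes with the letters, Mcm6 was the 1 with a promoter peak in either list. Among all promoters with the letters the share with a peak was 41.3% (201 of 487), and among all promoters in the table it was 24.8% (4097 of 16538), where the licensing genes gave 1 of 9. Seen from the peaks, 4.91% of the 4097 promoters with a peak held the letters. The whole Mcm6 peak held 3 E2F matches, all of them in the stretch printed above.

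Of the other letters, CCAAT, bound by NF-Y, was present in 7 of 9 licensing genes (38.8% of all promoters) and the GC-box GGGCGG, bound by Sp factors, in 7 of 9 (48.2%). Among the 39 other replication genes searched, the shares were 48.7% for CCAAT and 71.8% for the GC-box. The cell cycle element CHR (TTTGAA), through which the DREAM complex acts, was present in Mcm2 and Cdc45 (15.6% of all promoters), both of which lacked the E2F letters. The YY1 letters AAGATGGC were present in Mcm5 and Mcm10 (3.27%), the ETS letters CCGGAAG in Mcm10 (12.3%) and the NRF1 letters GCATGCGC in Cdt1 (3.77%), where there were 2 matches. The E-box CACGTG was in none (8.10%). RE1, the element of the repressor REST, was searched with at most 2 mismatches in 17 bases and matched in Mcm5 at -15 to 2 (3.01%), a gene with no peak near it. The Mcm6 peak and the replicate 1 peak at Cops6, beside Mcm7, held no RE1 match. The replicate 1 peak at Tpra1, beside Mcm2, held 1, while the narrower replicate 2 peak within it held none. The share of 3.01% is for promoter windows, so no background is given here for matches in whole peaks.

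**Figure D3:**
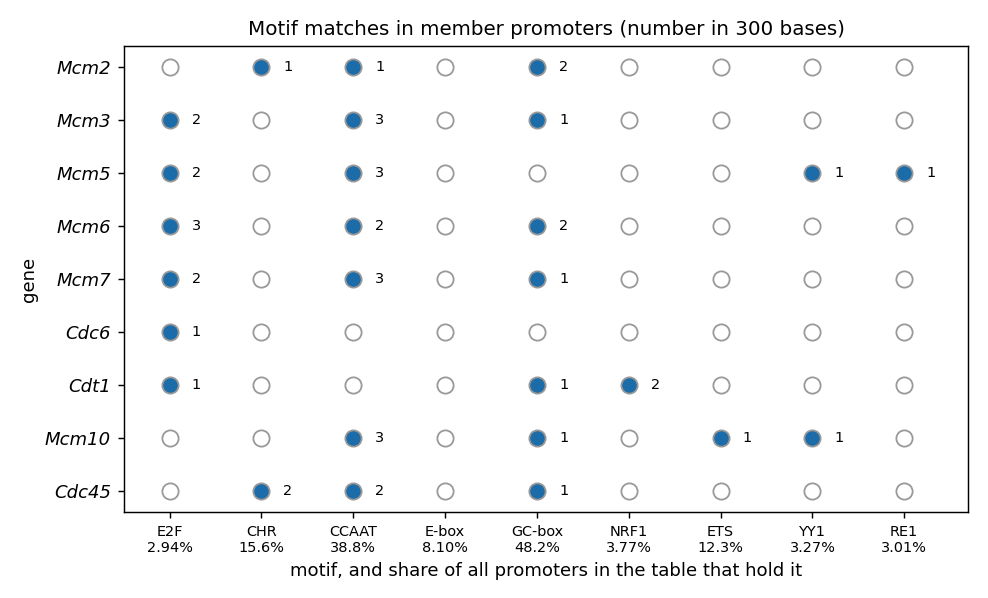
Motif matches in the promoters of the 9 licensing genes with an entry in the RefSeq table, with a filled circle where at least 1 match was found (the number beside it counts the matches on both strands) and an open circle where none was. The percentage under each motif is the share of all 16538 promoters with a match, and the E2F column is filled in 6 of 9 genes against 2.94%. Among 39 other replication genes, which are not drawn, the E2F share was 33.3%.

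Base composition was compared because peaks were more frequent at CpG-rich promoters, a class defined after the peak counts were seen as at least 50% GC with an observed to expected CpG ratio of at least 0.6 in the 500 bp on either side of the 5′ end. The comparison was kept to the 9 licensing genes with an entry in the promoter table, so Mcm4 is not in it, while the background is all genes with a value. Of these 9, 5 were in the class (Mcm3, Mcm5, Mcm6, Cdc6 and Cdt1), beside 44.4% of all genes (9738 of 21938). Mcm2 was just outside it, with 57.0% GC and a ratio of 0.5963. GC content ran from 47.8% in Mcm10 to 64.6% in Cdt1, and the CpG ratio from 0.56 in Mcm7 to 0.85 in Cdt1. These values are for the GENCODE 5′ end, and the RefSeq starts of Mcm7 and Cdc6, used for the motifs, lie 539 and 350 bp downstream of it. Among all CpG-rich genes, 38.5% (3748) had a promoter peak in replicate 1, 27.8% (2707) in replicate 2 and 44.2% (4303) in either list. Of the 5 CpG-rich licensing genes, Mcm6 alone had a peak in replicate 1, and none had a peak in replicate 2.

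The other genes of DNA replication were taken as a list of 49 in 11 role groups, chosen with earlier results of these data known. Of these companions, 19 (38.8%) had a promoter peak in replicate 1, 14 (28.6%) in replicate 2, 13 (26.5%) in both and 20 (40.8%) in either list, beside the same backgrounds of 20.2%, 14.7%, 11.5% and 23.5%. Among all CpG-rich genes the shares were 38.5% in replicate 1, 27.8% in replicate 2 and 44.2% in either list. The CpG class of the companions is not given here, so no excess is read from their counts. The count in either list depended on which peaks were used. Without the peaks narrower than their list's median it was 10 companions and 0 licensing genes, beside 14.6% of all genes (3208), and with only peaks near no other gene's start it was 9 companions and 1 licensing gene, beside 14.3% of all genes (3140). In all 13 genes with promoter peaks in both lists, peaks of the lists overlapped each other. The widths at these genes were 650 to 2075 bp in replicate 1 and 117 to 725 bp in replicate 2, so the same difference between the lists was present gene by gene. No companion had a gene body peak away from its promoter, as was the case for the licensing genes.

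Some of the genes that act directly beside the licensing genes had peaks in both lists, and others had none. In the origin recognition complex, to which Cdc6 and Cdt1 bring the helicase, 3 of 6 genes had them, with replicate 1 and replicate 2 widths of 2075 and 422 bp at Orc4, 1653 and 147 bp at Orc6, and 969 and 117 bp at Orc3, while Orc1, Orc2 and Orc5 had no peak in either list. Gmnn, which encodes geminin, the inhibitor of Cdt1, had peaks of 1051 and 315 bp whose midpoints were 282 and 165 bp downstream of its 5′ end. Mcmbp, whose product binds MCM subunits, had peaks of 1047 and 725 bp. Mcm9, a relative of the ring subunits, had a replicate 1 peak of 1196 bp and 2 replicate 2 peaks, the widest of 147 bp. The related Mcm8 had none. Orc4, Orc6, Orc3 and Mcm9 shared these peaks with a start of another gene (Mbd5, Vps35, Rars2 and Asf1a, respectively). The replicate 1 peak and the widest replicate 2 peak of Mcm9 lay at an internal start, with midpoints 33005.5 and 33126 bp downstream of the 5′ end.

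Of the factors that fire licensed origins, Dbf4, the activating subunit of the kinase that phosphorylates MCM2-7, had peaks of 739 and 128 bp, shared with Slc25a40, while its partner Cdc7 had none. Among 6 origin firing genes, 3 had peaks in both lists, namely Recql4 (1399 and 347 bp), Ticrr (1395 and 316 bp) and Topbp1 (960 and 302 bp), with the Recql4 peaks shared with Lrrc14 and the Topbp1 peaks with 1300017J02Rik. Rpa2, a subunit of the single-strand DNA binding complex, had peaks of 908 and 149 bp, and Tipin, of the fork protection complex, had peaks of 694 and 266 bp. The groups in which no gene had a peak in both lists were the GINS complex (1 of 4 genes in replicate 1 and 0 in replicate 2), the replicative polymerases and primase (1 of 12 and 0) and the enzymes of Okazaki fragment processing (2 of 3 and 0). The 3 roles of the licensing genes, the 6 subunits of the MCM2-7 ring included, likewise had 0 genes with a peak in replicate 2, and groups this small cannot be ranked against a background of 14.7%.

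**Figure D4:**
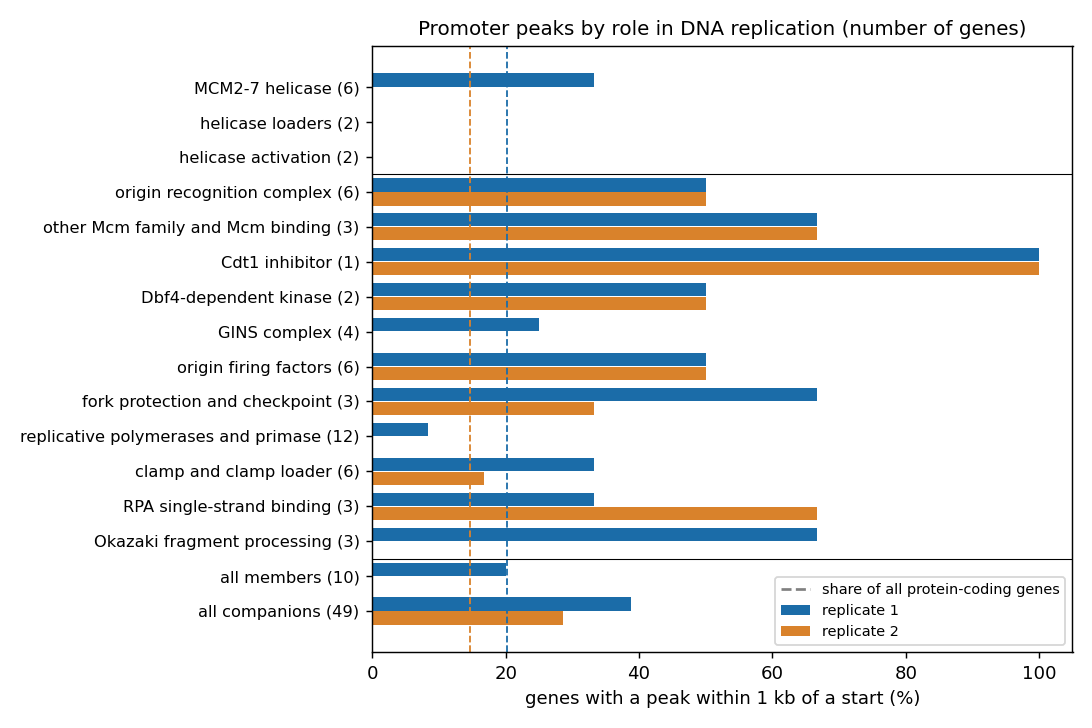
Share of genes (%) with a peak within 1 kb of a start in replicate 1 (blue bars) and replicate 2 (orange bars) for the 3 roles of the licensing genes, the 11 roles of the companions and both lists as a whole, with the number of genes in parentheses and dashed lines at the shares of all protein-coding genes (20.2% and 14.7%). The licensing genes reach 20.0% and 0%, and the 49 companions 38.8% and 28.6%.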

How the data were processed

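Kidneys of E13.5 Eya1 HA-FLAG embryos were used for ChIP-seq in 2 replicates, grouped by their titles. According to the methods of the study, the authors aligned reads to mm10 with Bowtie and called peaks with MACS at various cutoffs against input or IgG, and the submitters' processing notes name HISAT2. The deposited lists hold peak positions (mm10) with no score, and the cutoff and control behind each list are not given in the sources used here. Replicate 2 held 11 mitochondrial peaks, which were not matched to genes. Peaks were assigned to GENCODE M21 genes with Python 3.11.15, sequences were read with pysam 0.24.0 and plots drawn with matplotlib 3.10.9. All 10 licensing genes were named, as were genes with a start within 1 kb of their promoter peaks or starts, and the 12 companions with promoter peaks in both lists that were widest in replicate 1. The genes at the replicate 1 peak nearest to Cdc45 are not reported here. Counts were set beside the share over all protein-coding genes, and no test was made, since each replicate gives 1 list. The code was tested on simulated intervals. Members and lists were chosen with earlier results of these data known. Alternatives covered the distance, the starts, peak width, overlap and motif windows.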

Additional observations from a re-analysis of the deposited data

How the results depend on the processing

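Of 57 alternative values for 8 results, 45 kept the reported value within the limit used (1.5 times for a count, 1 SD for the width) and 12 moved. Many of the kept values were counts of 0 that stayed at 0, where such a limit says little, and the SD came from 3 peaks. The E2F letters with TTTGGCGC only were found in 4 of 9 licensing genes instead of 6, which was within the limit. With starts within 5 kb, the licensing genes with a peak numbered 4 in replicate 1, 1 in replicate 2, 1 in both and 4 in either list. With peaks narrower than the list median left out, they numbered 0 in replicate 1 and 0 in either list, and the companions 10. Leaving out each replicate in turn gave 0 to 2 licensing genes and 14 to 19 companions with a peak, and the 0 was without replicate 1. Peaks with no start of another gene within 1 kb, an alternative chosen after seeing the data, left 1 licensing gene (Mcm6) and 9 companions. A gene span with 5 kb on either side gave 2 licensing genes with a peak away from the promoter (Mcm2 and Mcm7, at Tpra1 and Cops6). In whole promoter peaks, E2F letters were found in the 1 licensing gene searched, Mcm6. RefSeq starts, also chosen after seeing the data, left the 4 counts as they were. No width was available for replicate 2, which had no promoter peak at a licensing gene. No paired analysis was possible because the results come from no test and the input and IgG controls have no replicate numbers. Depth is unknown, and the lists carry no strength, so a peak just under the authors' cutoff cannot be told apart from no signal.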
